A study of Mus musculus with 3 samples.

Results

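Proximal chromosome 17 carries Prdm9, the gene for the zinc-finger protein that positions meiotic recombination in mice, and the major histocompatibility complex (MHC), and here it is described by every H3K4me3 peak whose centre lies between positions 3000000 and 40000000 of mm10. Members were taken by position alone: 2113 of the 101978 narrow peaks and 1893 of the 98334 broad peaks of the series have their centre in this window. H3K4me3 was measured by ChIP-seq in whole testis of adult, 23-week-old male (C57BL/6J x CAST/Eij)F1 hybrids whose prdm9 genotype is Humanized/CAST, in 2 ChIP libraries beside 1 input, under a single condition. The Humanized allele is the C57BL/6J gene with its zinc-finger array exchanged for that of the human PRDM9 B allele, and the other chromosome keeps the CAST allele, so every PRDM9 protein in these testes is of 1 of these 2 kinds. The methods describe 1 testis from each of 2 littermates, and the submitted design describes both testes of a single male, in which case the spread between the ChIP libraries is technical. A whole testis mixes cell types, and a high level of the mark per cell cannot be told apart from a large share of cells that carry it.

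PRDM9 binds DNA through its zinc fingers and trimethylates lysine 4 of histone H3 on the nucleosomes around its sites, where the breaks that start meiotic recombination are then made. The same mark stands at active gene starts without PRDM9. A peak was therefore called PRDM9-independent when it overlapped a region that the authors had found marked in mice with differing Prdm9 alleles, and PRDM9-dependent otherwise. Of the narrow peaks of the window 1214 were PRDM9-dependent and 899 PRDM9-independent, and of the broad peaks 1140 and 753. A narrow peak is a point of highest enrichment, and a broad peak is a merged stretch of enriched 100 bp bins. The window holds, from the centromere outwards, the imprinted Igf2r cluster, Prdm9, a large array of vomeronasal receptor genes, a gene-rich stretch, the MHC and an array of olfactory receptor genes. The t-complex genes, in which variants are known to distort transmission through sperm, are spread over much of it. In mice the MHC is called H2 and encodes the molecules that present peptides to T cells.

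Sequences are shown for PRDM9-dependent peaks on which the results below turn, each as the plus strand of GRCm38.p6 (mm10, RefSeq) from 100 bases before to 100 bases after the peak centre. Capitals mark matches to CCTCCCT or its reverse complement AGGGAGG, the core of the motif bound by the human PRDM9 B allele. The first 3 were set by the naming rule: the highest ChIP coverage in the window, in the MHC and within 100 kb of Prdm9. The other 2 were chosen after their values were seen, as strongly covered MHC peaks with low input that hold the motif. A further such peak, at 35784922, has a window that is 78.6% repeat-masked and is not printed.
Highest coverage, chr17:39844447-39844647: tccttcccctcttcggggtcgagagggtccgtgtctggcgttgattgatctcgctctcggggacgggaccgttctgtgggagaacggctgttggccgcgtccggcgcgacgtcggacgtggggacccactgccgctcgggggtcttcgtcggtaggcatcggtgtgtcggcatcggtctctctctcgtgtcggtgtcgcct
Highest coverage in the MHC, chr17:36231319-36231519: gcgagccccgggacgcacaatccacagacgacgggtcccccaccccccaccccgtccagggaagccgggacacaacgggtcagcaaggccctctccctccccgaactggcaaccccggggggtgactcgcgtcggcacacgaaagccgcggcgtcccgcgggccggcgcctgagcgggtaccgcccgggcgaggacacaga
Last exon of Prdm9, chr17:15544249-15544449: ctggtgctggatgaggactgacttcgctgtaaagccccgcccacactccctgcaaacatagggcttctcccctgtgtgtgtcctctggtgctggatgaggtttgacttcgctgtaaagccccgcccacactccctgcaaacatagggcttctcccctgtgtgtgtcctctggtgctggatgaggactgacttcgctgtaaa
MHC peak upstream of Tnxb, chr17:34660320-34660520: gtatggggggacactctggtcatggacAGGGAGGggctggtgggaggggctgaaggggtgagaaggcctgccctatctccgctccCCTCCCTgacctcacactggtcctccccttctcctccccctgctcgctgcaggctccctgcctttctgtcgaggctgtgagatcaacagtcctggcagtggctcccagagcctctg
MHC peak near Psmb9 and Tap1, chr17:34180520-34180720: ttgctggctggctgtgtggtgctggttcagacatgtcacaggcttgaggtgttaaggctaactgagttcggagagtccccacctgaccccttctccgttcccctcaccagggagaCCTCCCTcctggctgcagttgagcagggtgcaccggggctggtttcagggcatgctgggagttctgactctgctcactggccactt
The window in the last exon of Prdm9 is a tandem repeat: shifted by 84 bases, the length of 1 zinc finger, 113 of its 117 compared bases were identical. The window upstream of Tnxb holds CCTCCCT and AGGGAGG, 1 match each, and that near Psmb9 and Tap1 holds CCTCCCT. None of the first 3 windows holds the motif. Over the window as a whole, CCTCCCT stood on either strand within 100 bases of the centre in 131 of 1214 PRDM9-dependent peaks (10.8%) and in 97 of 899 PRDM9-independent peaks (10.8%). The shares were 8.78% of PRDM9-dependent peaks on the rest of chromosome 17, 9.11% on the other autosomes and 5.03% of all autosomal windows of the same length. A match is a description of the sequence and not evidence of binding.

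Both classes of narrow peak, as called by the authors, were denser in proximal chromosome 17 than over the whole of any other autosome. For the PRDM9-dependent class the first place was lost among peaks with p under 1e-10, at 21.88 per Mb against 21.89 on chromosome 19. PRDM9-dependent narrow peaks numbered 33.0 per Mb of non-N sequence, against 27.6 on the rest of chromosome 17 and 21.3 to 30.9 over the 18 other autosomes (median 25.7), with chromosome 19 the highest of these. PRDM9-independent narrow peaks numbered 24.4 per Mb, against 16 on the rest of the chromosome and 12.3 to 22.3 elsewhere (median 16.2), with chromosome 11 highest. The window thus held 1.28 times the median density of other autosomes in PRDM9-dependent peaks and 1.503 times in PRDM9-independent peaks. Broad peaks gave 31.0 PRDM9-dependent per Mb, which chromosome 19 exceeded at 31.2, and 20.4 PRDM9-independent per Mb, above the 11.2 to 19.3 of the other 18. These densities come from 1 window and from peaks called on both libraries jointly, so they have no replicate and no test, and the range over autosomes is the spread to set them against.

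Against pieces of its own length the window was high without being the highest. Among 55 non-overlapping 37 Mb tiles of the other autosomes, 4 had more PRDM9-dependent narrow peaks per Mb, led by 45.5 on chromosome 5 from 114 to 151 Mb, and 3 had more PRDM9-independent ones, led by 31.1 on chromosome 4 from 114 to 151 Mb. Against the same 3 to 40 Mb of each of the 18 other autosomes it was above all of them in both classes, with 15.8 to 27.7 PRDM9-dependent and 7.77 to 22 PRDM9-independent narrow peaks per Mb there.

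**Figure D1:**
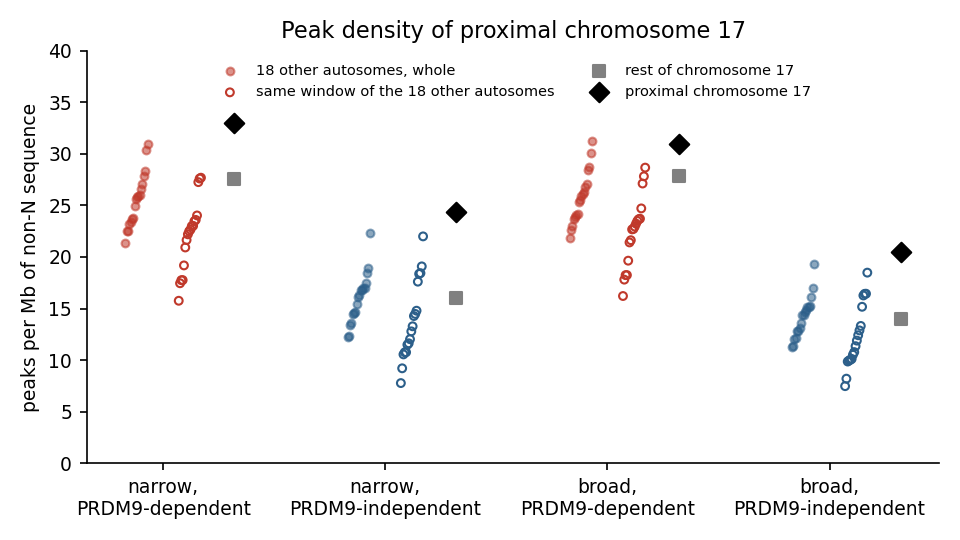
Peaks per Mb of non-N sequence (vertical axis) for narrow and broad peaks of each class; filled points are the 18 other autosomes, open points the same 3 to 40 Mb window of each, the square the rest of chromosome 17 and the diamond proximal chromosome 17. The diamond stands above all filled and open points in 3 of the 4 columns, and in the broad PRDM9-dependent column chromosome 19 (31.2) lies just above it (31.0).

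The 2 classes were not raised by the same amount. PRDM9-dependent peaks made up 57.5% of the narrow peaks of the window (exact Clopper-Pearson 95% interval 55.3 to 59.6%, counting error only), below the 63.3% of the rest of chromosome 17 and below each of the 18 other autosomes, which ran from 57.6% on chromosome 11 to 64.6% on chromosome 1. The interval includes the shares of chromosomes 7 (57.7%) and 11. Against stretches of its own length it was not the lowest: the same 3 to 40 Mb gave 51.6% on chromosome 7 and 56.6% on chromosome 5, and 5 of the 55 tiles had a lower share. For broad peaks the share was 60.2% (58.0 to 62.4%) against 66.6% on the rest of the chromosome and 60.9 to 67.1% on the other autosomes. The window is also the more gene-rich stretch, with 18.8 protein-coding genes per Mb against 6.63 on the rest of chromosome 17 and a median of 7.92 (5.50 to 14.3) on the other autosomes. Of its 899 PRDM9-independent narrow peaks 535 (59.5%) lay within 1 kb of an annotated start, compared with 41.5% on the rest of the chromosome and 47.1% on the other autosomes.

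PRDM9-dependent peaks also lay near gene starts more often here. They fell within 1 kb of an annotated start in 146 of 1214 cases (12.0%), compared with 6.53% on the rest of the chromosome and 7.24% on the other autosomes, and this made 3.96 such peaks per Mb where the other autosomes had 1.505 to 2.21. A further 90 lay in exons, 504 in introns and 474 between genes. Intergenic ones numbered 12.9 per Mb, close to the 12.7 of the rest of chromosome 17. When peaks within 1 kb of a start or inside a PRDM9-independent broad peak were left out, a choice made after seeing the data, 928 remained at 25.2 per Mb, above the median of 22.2 but below 2 of the 18 other autosomes, whose highest value was 26.7. Of the 691 protein-coding genes of the window, 435 (63.0%) had a PRDM9-independent narrow peak within 1 kb of a start, below the 69.8% of all autosomal protein-coding genes. A PRDM9-dependent peak stood there in 52 genes (7.53%), near the background of 7.6%, and 216 genes had neither.

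Fragment counts over the centres show how unlike the classes are. PRDM9-dependent peaks of the window had median counts of 16 and 18 fragments in the ChIP libraries, over 7 in the input. PRDM9-independent peaks had medians of 184, 208 and 15. The deposited enrichment, the authors' estimate of signal over local background with 0 for none, had a median of 2.35 in PRDM9-dependent peaks (quartiles 1.36 to 4.41) and of 15.6 in PRDM9-independent peaks (5.89 to 40.5). The former is below the medians of 2.81 on the rest of the chromosome and 2.73 on the other autosomes, and the latter is above their 11.2 and 11.8. Enrichment also served to call the peaks and is given as a description.

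Most PRDM9-dependent members are weak and their single values uncertain. Both ChIP libraries exceeded the input, without scaling for depth, at 1012 of the 1214 (83.4%), below the background of 88% over all autosomal peaks of the class. In the PRDM9-independent class 892 of 899 (99.2%) did so, near the background of 99.4%. A p-value under 1e-10 in the authors' test was held by 806 PRDM9-dependent members (66.4%, background 69.5%). The replicates differed by 2-fold or more at 155 of them (12.8%), and 527 (43.4%) had under 30 fragments in both ChIP libraries together. On the log2 scale the replicates correlated across peaks with a Pearson coefficient of 0.906 in PRDM9-dependent and 0.993 in PRDM9-independent members, where peaks share the 2 libraries and are not independent replicates. Broad peaks had a median width of 600 bp in the PRDM9-dependent and 2500 bp in the PRDM9-independent class.

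Along the window the peaks were very unevenly spread. Counts per 1 Mb bin ran from 4 to 114 PRDM9-dependent narrow peaks, with a median of 31 over 37 bins, and from 1 to 67 PRDM9-independent ones, with a median of 22. The same bin, from 35 to 36 Mb in the MHC, was highest for both. Its 114 PRDM9-dependent narrow peaks were more than in any of 2311 bins of the other autosomes, which reached 83 and had a median of 24. Its PRDM9-dependent broad peaks, 44, were by contrast below the 95th percentile of 48 of those bins. The lowest counts were at the arrays of receptor genes: 6 PRDM9-dependent peaks from 18 to 19 Mb and 8 from 19 to 20 Mb, in the vomeronasal array, and 6 and 4 in the last 2 bins, at the end of the olfactory array and beyond it. Across the 37 bins the 2 classes rose and fell together (Pearson 0.72), and both followed the GC content of the bin (0.69 and 0.82). These correlations describe adjoining bins of 1 chromosome arm measured in the same libraries.

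**Figure D2:**
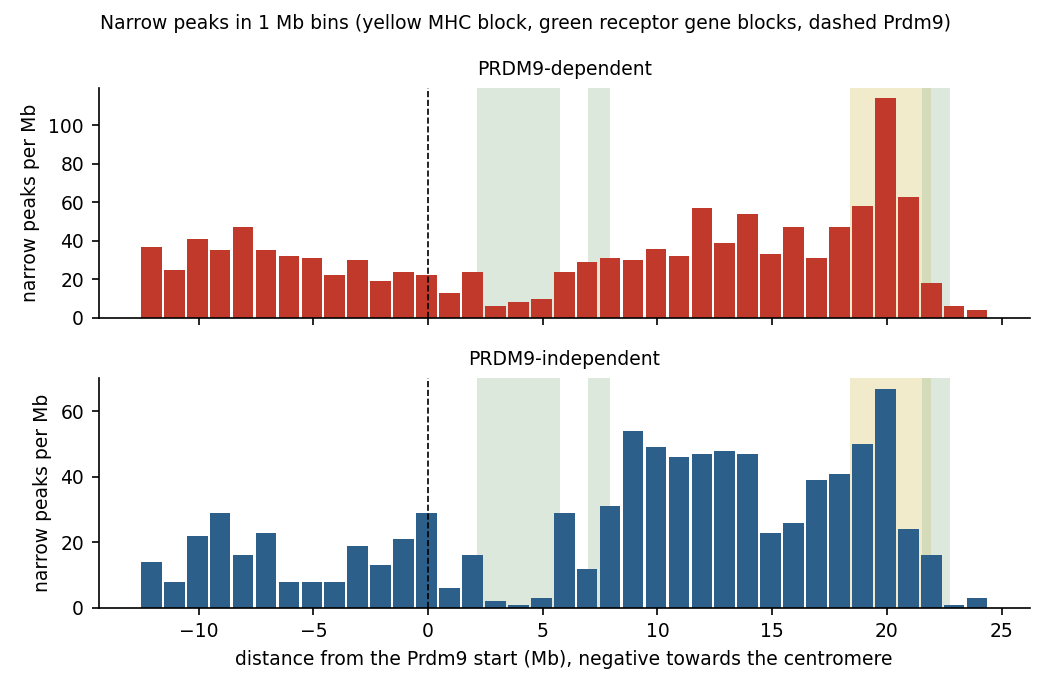
Narrow peaks per 1 Mb bin (vertical axis) against distance from the Prdm9 start in Mb (horizontal axis), PRDM9-dependent above and PRDM9-independent below, with the MHC in yellow, the receptor gene arrays in green and Prdm9 as a dashed line. Both classes peak in the same MHC bin, at 114 and 67, and drop to as low as 6 and 1 in the vomeronasal array.

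The gene itself is marked at its promoter and, weakly, in the exon that encodes its zinc fingers. At the Prdm9 start (gene at chr17:15543079-15564354, minus strand) a PRDM9-independent peak centred at 15564640 had 514 and 693 ChIP fragments (replicates 1 and 2, in this order throughout) over 5 in the input. Its enrichment of 114 was above those of most gene-start peaks nearby. Within the last exon, at 15544349, a PRDM9-dependent peak had 37 and 58 ChIP fragments over 19, with an enrichment of 2.22. The zinc-finger part of that exon is what was replaced in the Humanized allele, and the reads were mapped to the C57BL/6J sequence printed above. How far the repeat and the replacement bear on its counts was not tested.

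Around Prdm9 the strong peaks all belonged to neighbouring gene starts. Of the 15 narrow peaks within 100 kb of the gene 10 were PRDM9-independent. Tbp, which encodes the TATA-binding protein, had 1383 and 1586 ChIP fragments over 10 in the input, the highest enrichment of these (140). Psmb1, a proteasome subunit gene, had 1616 and 1728 over 35, and Pdcd2 had 1309 and 1342 over 18. The 5 PRDM9-dependent peaks were weak: apart from the exonic one replicate 1 held 6 to 10 fragments there, replicate 2 held 8 to 16, and the input 2 to 8. In the Mb to either side, Prdm9 stood in a stretch with 19.5 PRDM9-dependent and 20 PRDM9-independent narrow peaks per Mb, the former below the window's 33.0. Starts of all 8 listed genes of the neighbourhood carried a PRDM9-independent peak, from an enrichment of 13.1 at Dll1, a Notch ligand gene, to that of Tbp. Chd1, a chromatin remodeller gene, had 57.3 and Rgmb, a co-receptor gene for bone morphogenetic proteins, 60.6.

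**Figure D3:**
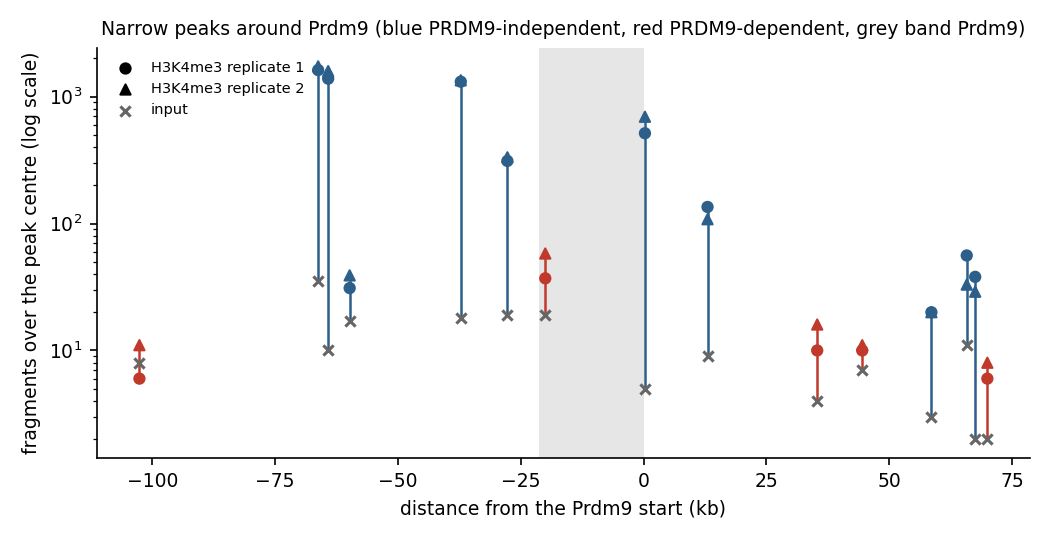
Fragments over each narrow peak centre on a log axis against distance from the Prdm9 start in kb; circles and triangles are ChIP replicates 1 and 2, crosses the input, blue PRDM9-independent and red PRDM9-dependent peaks, and the grey band Prdm9. The peaks of over 300 ChIP fragments are all blue, and the red peak in the gene has 37 and 58 fragments over 19.

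Genes that work in meiosis and map to this window were marked at their starts. All 8 on the list had a PRDM9-independent peak there, where 63.0% of the protein-coding genes of the window did, and their median enrichment was 77.0. Rnf8, a ubiquitin ligase gene of the DNA damage response, had 2166 and 2390 ChIP fragments over 25 in the input. Hsf2bp, whose product works with BRCA2 in meiosis, had 1549 and 1516 over 21, and 5 PRDM9-dependent peaks lay within its gene body. Ehmt2, an H3K9 methyltransferase gene, had an enrichment of 85.5. Msh5, which stabilises crossover intermediates, had 40.4, and Meiob, a gene for a meiotic single-strand DNA-binding protein, had 25.02, the lowest of the list. The 11 other genes of the window set beside them, mostly housekeeping genes such as the ribosomal protein genes Rps2, Rps10 and Rps18, all had such a peak too. Their median enrichment was 66.8, with the highest value at Daxx (168), a histone chaperone gene, and the lowest at Pou5f1 (6.35), which encodes a pluripotency factor and is no housekeeping gene.

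The strongest gene-start peaks of the window were alike in height. The 3 of highest coverage were at Map3k4, a kinase gene, with 3172 and 3048 ChIP fragments over 38, at Phf1, a Polycomb-associated factor gene, with 3058 and 3106 over 32, and at Stk38, a kinase gene, with 2911 and 2878 over 29. In each of the 3 the replicates differed by less than 5% of their mean.

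The MHC, from the first to the last gene with an H2 symbol (chr17:33974659-37483552), was the stretch richest in PRDM9-dependent narrow peaks. It held 258 of them in 3.51 Mb, 73.5 per Mb, together with 153 PRDM9-independent ones at 43.6 per Mb. As broad peaks the PRDM9-dependent class came to 44.7 per Mb, against 31.0 in the whole window. The block also has 49.3 protein-coding genes per Mb. Without it, the window kept 28.7 PRDM9-dependent narrow peaks per Mb, below 2 of the 18 other autosomes, and 22.4 PRDM9-independent ones per Mb, still above all of them. The PRDM9-dependent peaks of the block were of low enrichment, with a median of 2.03. The block was not rich throughout. Its H2-M part (chr17:36284227-37483552) held 30 PRDM9-dependent narrow peaks, 25.01 per Mb, and 20 PRDM9-independent ones, 16.7 per Mb. Both densities are below those of the whole window, 33.0 and 24.4 per Mb.

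A single broad peak held 68 of the 258. At 207.8 kb (chr17:35263501-35471300) it was the widest in the series, ahead of 108.8 kb on chromosome 1. It spans 15 annotated genes, 9 of them H2 genes, from H2-D1 through the H2-Q cluster of non-classical class I genes to H2-Q10. It holds 80 narrow peaks, 68 of them PRDM9-dependent and 12 PRDM9-independent, although PRDM9-independent regions cover only 8.33% of its length. All 68 had a p-value under 1e-10. Leaving this broad peak out, the MHC had 57.6 PRDM9-dependent narrow peaks per Mb and the bin from 35 to 36 Mb had 46, 58.1 per Mb.

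Within that domain the PRDM9-dependent counts formed plateaus rather than separate summits. Between the start peaks of H2-Q4 and H2-Q6, 14 PRDM9-dependent centres spread over 37.4 kb had counts of 64 to 70 (replicate 1), 62 to 74 (replicate 2) and 3 to 11 (input). Between those of H2-Q6 and H2-Q10, 16 centres over 37.5 kb had 86 to 92, 86 to 90 and 5 to 8. The level thus stepped up at the H2-Q6 start peak and was flat on either side of it. Start peaks inside the plateaus showed no such step. The nearest PRDM9-dependent centres had 65 and 68 fragments before H2-Q5 and 67 and 64 after it. Before H2-Q7 they had 86 and 89, and after it 88 and 87. Over the 16 centres the variance was 0.027 times the mean in replicate 1 and 0.029 in replicate 2, whereas a Poisson count has a variance equal to its mean. Towards H2-D1 the other 38 centres ran from 16 to 71 in replicate 1, over a higher input of 7 to 38. Their variance in replicate 1 was 3.45 times the mean. They were pooled across the start peaks of H2-Q1, H2-Q2 and H2-Q3, so this variance mixes levels. Past H2-Q3, for instance, centres from 35361364 to 35374157 held 20 to 22 fragments in replicate 1 and 27 to 34 in replicate 2. Windows at the start peaks of H2-Q6 and H2-Q7 were 79.5% identical and those of H2-Q4 and H2-Q7 82.8%. Whether fragments are shared between such copies, in which case these centres would not be separate sites, was not tested. Even coverage of this kind was not confined to the domain: 2 further broad peaks of the MHC, at 36082801 to 36094400 and 36095201 to 36109000 near H2-Bl, held 4 and 7 PRDM9-dependent centres with a variance under 0.3 times the mean in both replicates. Over all autosomes 13 of the 95 broad peaks with 4 or more PRDM9-dependent centres met that limit, which was chosen after the values were seen.

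Counts of strong sites depended on this domain. PRDM9-dependent peaks with an enrichment over 10 numbered 82 in the window, 2.23 per Mb, which was above 16 of the 18 other autosomes. Of these 27 lie in the 207.8 kb domain, and without it 55 remained at 1.502 per Mb, below all 18. Peaks with at least 100 ChIP fragments and up to 30 input fragments numbered 161, 4.37 per Mb against 1.54 to 3.51 elsewhere, and 128 without the domain, 3.50 per Mb, below chromosome 11 alone. The density of all PRDM9-dependent narrow peaks fell from 33.0 to 31.3 per Mb, still above all 18 other autosomes. Intergenic ones lost 57 of 474 with the domain, and their density of 12.9 per Mb, which no other autosome exceeded, became 11.4, below 6 of the 18. Those more than 1 kb from a start went from 29.0 to 27.4 per Mb, below 2 of the 18.

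**Figure D4:**
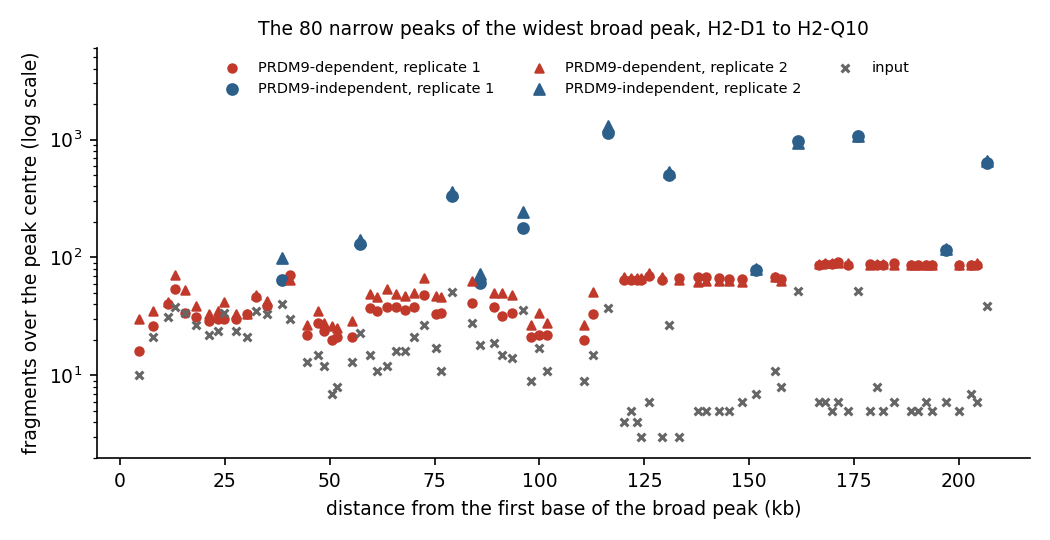
Fragments over the 80 narrow peak centres of the widest broad peak on a log axis against distance from its first base in kb; circles are ChIP replicate 1, triangles replicate 2, crosses the input, red PRDM9-dependent and blue PRDM9-independent centres. The red symbols lie flat at 62 to 74 and then at 86 to 92 between the start peaks of H2-Q4, H2-Q6 and H2-Q10, over an input of 3 to 11.

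At the class I genes themselves, which present peptides from inside the cell, marking ranged from strong to none. H2-D1, a classical class I gene, had 2850 and 2887 ChIP fragments at its start over 84 in the input, and H2-K1, the other classical gene, had 1450 and 1532 over 49. Non-classical genes of the Q cluster followed: H2-Q4 had 1134 and 1307 over 37, H2-Q7 had 1081 and 1079 over 52, and H2-Q1 had 129 and 142 over 23. Windows around the H2-Q4 and H2-Q7 peaks were 82.8% identical, so reads may be shared between copies and these levels are uncertain. Windows of the other H2-Q pairs gave lower identities. They were fixed on peak centres, which lay at differing distances from the starts, so a low identity does not show that copies differ. Of 26 listed class I genes and pseudogenes 14 (53.8%) had a PRDM9-independent start peak, 4 a PRDM9-dependent one and 8 neither. The share is below the 63.0% of the window, which counts protein-coding genes alone. H2-Q3 and H2-Q5, which were not on the list, also had a PRDM9-independent start peak. The 8 with neither were H2-M9, H2-M11 and the 6 H2-M10 genes, a family known to be expressed with vomeronasal receptors. H2-M5 had the strongest of the 4 PRDM9-dependent start peaks, with 69 and 96 ChIP fragments over 14.

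Class II genes, which are expressed by antigen-presenting cells, were nearly without a start peak. Only H2-DMa, a peptide-loading gene, had a PRDM9-independent one among 9 (11.1%), where 63.0% of the window's protein-coding genes did. The H2-DMa peak had 921 and 950 ChIP fragments over 34. The centre of that peak lies inside the annotated Brd2, a bromodomain gene read in the opposite direction, near its 5′ end, so its fragments cannot be given to either gene. The broad peak around it, of 15.1 kb, also holds a Brd2 start peak of 2387 and 2419 over 32. H2-Eb1 and H2-Eb2 had weak PRDM9-dependent peaks, 3 and 15 fragments over 5 at H2-Eb1, and 6 genes, the antigen-presenting H2-Aa and H2-Ab1 among them, had none. Within their gene bodies H2-Ab1, H2-Eb1, H2-DMb1 and H2-DMb2 each held 1 PRDM9-independent narrow peak. Of the 5 genes that prepare peptides 4 (80%) had a PRDM9-independent start peak. Tapbp, the tapasin gene, had an enrichment of 47.1, Psmb8, an immunoproteasome subunit gene, had 12.2, and Psmb9 and Tap1, whose starts share 1 peak, had 9.30. Tap2, which encodes the partner of the Tap1 product in the peptide transporter, had none within 1 kb.

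This class II stretch, from H2-Oa to H2-Eb2 (chr17:34092340-34341412), was nonetheless full of PRDM9-dependent peaks: 24 in 0.249 Mb, or 96.4 per Mb. The stretch also held 11 PRDM9-independent narrow peaks, 44.2 per Mb, and 56.2 protein-coding genes per Mb. The 24 PRDM9-dependent peaks had a median enrichment of 2.89. In the authors' test 15 of the 24 had a p-value under 1e-10, where 66.4% of the window's PRDM9-dependent peaks did. Inside the class II and processing genes such peaks stood in H2-Ab1 at 34268919 (34 and 41 ChIP fragments over 9), in Tap2 at 34214422 (35 and 41 over 13), in H2-Oa at 34094321 (25 and 33 over 6), in H2-Eb2 at 34329009 (18 and 24 over 6), in H2-DMa at 34128842 (14 and 14 over 7) and in H2-Ob at 34250543 (17 and 12 over 8). In all 6 the replicates kept within 1.5-fold of each other and both exceeded the input. These 6 had been named for a p-value under 1e-10 in the authors' joint test, which favours such agreement. The PRDM9-dependent start peak of H2-Eb1, outside that limit, had 3 and 15 fragments over 5. Those in H2-Oa, H2-DMa and Tap2 also lie within 1 kb of a start of another annotated gene. Those in H2-Ab1 and H2-DMa lie inside PRDM9-independent broad peaks, of 7100 and 15100 bp. The strongest of the stretch were outside gene bodies. At 34218905, past the end of Tap2, a peak had 135 and 189 ChIP fragments over 11 in the input (enrichment 13.7), and at 34180620, beyond the end of Psmb9, the last of the windows printed above had 93 and 120 over 5 (enrichment 19.9).

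The adjoining class III stretch showed the reverse balance. From Notch4 to Lta (chr17:34564268-35205351) it had 27 PRDM9-dependent and 49 PRDM9-independent narrow peaks, 42.1 and 76.4 per Mb. Of 22 listed genes 13 (59.1%) had a PRDM9-independent start peak, near the 63.0% of all coding genes of the window, 2 a PRDM9-dependent one and 7 neither. Csnk2b, a casein kinase 2 subunit gene, had 1937 and 1914 ChIP fragments over 31, Skiv2l, an RNA helicase gene, had 1620 and 1678 over 27, and Bag6, a chaperone gene needed in spermatogenesis, had 1588 and 1581 over 24. Immune genes of the stretch were uneven: C2, a complement gene, had 689 and 787 over 13, whereas Tnf, a cytokine gene, had 17 and 19 over 15 at a PRDM9-independent peak, Lta had a PRDM9-dependent peak of 16 and 25 over 12, and the other complement genes Cfb, C4a and C4b had none. The heat shock genes Hspa1a and Hspa1l share a peak of 438 and 430 over 17, so that its fragments cannot be given to either.

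Outside the plateaus, strong PRDM9-dependent peaks of the MHC away from gene starts stood far above the input. Upstream of Tnxb at 34660420, between genes, a peak had 137 and 162 ChIP fragments over 18 (enrichment 7.69), and in Ddr1, a collagen receptor gene, one at 35682282 had 182 and 156 over 19 (8.24), the last inside a PRDM9-independent broad peak of 14.7 kb. Peaks of the same rank were found outside the MHC. In an intron of Arid1b, a chromatin remodelling subunit gene, the peak at 5056055 had 133 and 179 over 7 (20.9). Tmem181a held one at 6274900 with 203 and 205 over 27 (6.98). Similar peaks lay near the like-named pseudogenes Tmem181c-ps at 6645797 (173 and 181 over 23) and Tmem181b-ps at 6472481 (160 and 159 over 24). Whether reads are shared among these sites was not tested. These were picked after their values were seen, by coverage among PRDM9-dependent peaks of low input more than 1 kb from a start.

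Of the 18 annotated t-complex genes 17 (94.4%) had a PRDM9-independent start peak, where 63.0% of all coding genes of the window did. Their median enrichment was 39.2. Tcp1, a chaperonin subunit gene, had 1810 and 2027 ChIP fragments over 27 at a start it shares with Mrpl18. Tcte2 had 1806 and 1989 over 43, Tcp11, a sperm gene, had 1577 and 1584 over 19, and Dnah8, an axonemal dynein gene, had 306 and 390 over 11 with 11 PRDM9-dependent peaks along its body. Tagap1, Fgd2, Nme3 and Tiam2, genes associated with transmission distortion in t haplotypes, had enrichments of 52.4, 15.8, 20.9 and 18.4. Levels at Tcp10a and Tcp10c are uncertain, since their windows were 95.1% identical. The exception was T, the brachyury gene of early mesoderm, whose start carried only a PRDM9-dependent peak with 66 and 77 over 23 (2.79). In the imprinted cluster, Igf2r had 1557 and 1550 over 26 and the noncoding Airn, which silences it on the paternal chromosome, had 496 and 528 over 21, while the liver and kidney genes Slc22a2 and Plg had no start peak.

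The receptor arrays were poor in both classes. The larger vomeronasal array (chr17:17703747-21323766, 60 genes) had 43 PRDM9-dependent and 20 PRDM9-independent narrow peaks, 11.9 and 5.52 per Mb. The smaller one had 11.8 and 5.35 per Mb and the olfactory array 12.8 and 8.78. None of 74 vomeronasal genes and pseudogenes had a PRDM9-independent start peak, and 1, the pseudogene Vmn1r-ps145, had a PRDM9-dependent one (47 and 47 ChIP fragments over 9). Among 63 olfactory genes and pseudogenes 6 (9.52%) had a PRDM9-independent and 3 a PRDM9-dependent start peak. Of the window's protein-coding genes, which leave out pseudogenes, 63.0% had a PRDM9-independent and 7.53% a PRDM9-dependent one. By enrichment Olfr761 led (26.7) with 140 and 145 over 5, and Olfr127 and Olfr128 had enrichments of 24.98 and 25.2. By coverage Olfr94 led with 241 and 238 over 35 (enrichment 6.31).

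A few peaks of very high input carried most of the PRDM9-dependent ChIP fragments of the window. The 1214 peaks are 1.99% of the autosomal PRDM9-dependent narrow peaks, yet their part of the fragments of that class was 4.84% (replicate 1), 4.29% (replicate 2) and 3.48% (input). Without peaks of over 100 input fragments these shares were 2.18%, 2.15% and 2.51%. There were 16 such peaks in the window, all PRDM9-dependent by position, against 1 on the rest of chromosome 17 and 111 PRDM9-dependent and 11 PRDM9-independent ones on the other autosomes. The PRDM9-independent share was 2.78% in both ChIP replicates and 2.71% in the input.

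**Figure D5:**
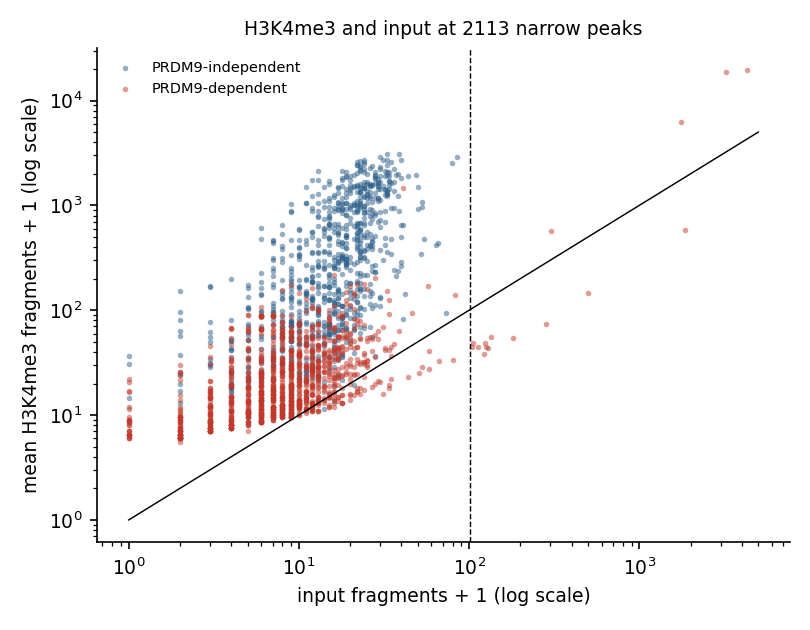
Mean ChIP fragments plus 1 against input fragments plus 1 for the 2113 narrow peaks, both axes on log scales, blue PRDM9-independent and red PRDM9-dependent; the solid line marks equal values and the dashed line 100 input fragments. The 16 peaks right of the dashed line are all red, and 12 of them lie below the solid line.

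The 16 fall into kinds that differ in whether the unscaled ChIP counts exceed the input. The 2 highest, at 39844547 with 20395 and 18510 ChIP fragments over 4272 and at 39848474 with 19583 and 17849 over 3248, lie in Gm26917 and in CT010467.1 and Gm42418, on either side of a sequence that RefSeq annotates as related to 18S ribosomal RNA (Rn18s-rs5). The peak at 36231419 in the MHC had 6128 and 6336 over 1763, and that at 22876485 had 569 and 571 over 302. In the other 12 both ChIP libraries were below the input. At 13552205, in 2700054A10Rik, they held 625 and 543 over 1854, and 8 of the 12 crowd into the start of the assembled chromosome from 3012955 to 3032054, with 30 to 61 ChIP fragments over 103 to 179. These counts are not scaled for library size, and enrichments at the 12 ran from 0.111 to 0.297. No broad peak covered any of the 12 or the 2 highest. A separate high point was at 31296315, 100 bases from a Slc37a1 start, with 1429 and 1501 over 40. It is PRDM9-dependent by its centre and lies in a PRDM9-independent broad peak of 4.3 kb. Of the PRDM9-dependent narrow peaks of the window 157 (12.9%) lay so, compared with 5.08% on the rest of the chromosome and 6.66% on the other autosomes, and 68 of them were in the 207.8 kb domain.

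Highest enrichment, in contrast, was found at sites with no input fragment. The 5 PRDM9-dependent peaks of highest enrichment included the one near Slc37a1 (34.4), and the other 4 had 15 to 25 fragments in the first ChIP library and 16 to 22 in the other, with 0 in the input. The top one, at 6983124 in Rnaset2b, a ribonuclease gene, had 25 and 17 and an enrichment of 39.4, and another lay in its paralog Rnaset2a at 8140964 with 15 and 16 (29.1). An input count of 0 allows up to 3 fragments, so these ratios are imprecise.

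Over the peak centres of the whole series the ChIP libraries held 17621116 (replicate 1) and 19094837 (replicate 2) fragments and the input 1250138. The labelled tissue was checked at gene starts outside the window or, for Dazl, beyond its end: all 6 germ cell genes (Prm1, Prm2, Tnp1, Sycp3, Ddx4, Dazl) carried a PRDM9-independent peak, as did Sox9, Star and Cyp11a1 of the Sertoli and Leydig cells. Amh had none, nor did Alb and Ins2, which mark other tissues. Of the 802 deposited PRDM9-independent regions centred in the window 796 (99.3%) held a broad peak here, like the 99.0% of all autosomal ones.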

How the data were processed

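H3K4me3 ChIP-seq was analysed in 2 libraries (replicates 1 and 2) and 1 input of whole testis. The authors mapped reads with BWA, then Stampy, against mm10, removed duplicates and improper pairs, and computed coverage with samtools and bedtools. BWA, SAMtools, bedtools and the build are also named in the submitters' processing notes. The deposited counts are fragments over each narrow peak centre, not normalized. The deposited enrichment is a ratio over local background, and the deposited p-value is the authors' likelihood ratio test, both from the replicates jointly, so peaks have no replicate of their own. Very small p-values are written as 0. Broad peaks (100 bp bins, p under 1e-05, merged) and the regions independent of PRDM9 came as bare positions. Narrow peaks used p under 1e-06. No column was left without a sample or pooled meaning (0 unmapped columns).

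Members have their centre at chr17:3000000-40000000. A narrow peak was PRDM9-independent if its centre base, and a broad peak if at least 1 bp, lay in a PRDM9-independent region. Densities used non-N sequence of GRCm38.p6 and genes of GENCODE M21. The members and gene lists were chosen with earlier results of these data known. Values are descriptions: with 1 condition there is no contrast to test. Intervals cover counting error only. Named peaks were the 5 PRDM9-dependent ones of highest coverage and of highest enrichment, the 3 PRDM9-independent ones of highest coverage, all within 100 kb of Prdm9, PRDM9-dependent ones with p under 1e-10 in class II and processing genes, and the strongest within 1 kb of a start of each listed gene. Smoktcr was not matched in the annotation. Some items are not reported here. Window identities came from global alignment. Overlap and counting steps were tested on simulated intervals. Alternatives were other overlap and threshold settings, other comparison windows and leaving out each replicate. Scripts used biopython 1.88, matplotlib 3.10.9, scipy 1.17.1, pandas 2.3.3, numpy 2.4.6 and Python 3.11.15.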

Additional observations from a re-analysis of the deposited data

How the results depend on the processing

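Densities by class stayed above the median of the other autosomes under each alternative overlap, p-value, window, length and exclusion setting, at 1.11 to 1.87 times, although the subset of PRDM9-dependent peaks with enrichment over 10 did not without the widest broad peak. Only peaks with p under 1e-10 left 21.9 PRDM9-dependent narrow peaks per Mb, no longer above chromosome 19, and broad peaks holding such a narrow peak 17.5 per Mb. The PRDM9-dependent share fell to 47.4% (narrow) and 46.6% (broad) under that limit, and for broad peaks its difference from the median autosome was -6.72 percentage points (-4.35 without the limit). With the class taken from the broad peak that holds it, the narrow share was 50.0%, which differed from the median autosome by -7.25 percentage points (-4.07 otherwise). Asking for 50 percent of the interval to be shared gave a broad share of 66.0%. Median PRDM9-dependent enrichment was 2.98 for p under 1e-10 and 1.91 with at least 5 input fragments. The deposited enrichment is joint and was not recomputed for 1 replicate. Instead, the median unscaled ratio of the remaining replicate to the input, each plus 1 fragment, was taken. It was 14.4 to 15.9 in PRDM9-independent and 2.25 to 2.57 in PRDM9-dependent peaks. This ratio is 1 at equal counts, where the deposited enrichment is 0 for no signal, so the 2 measures are unlike. Leaving out each replicate gave 4.29 to 4.84% for the PRDM9-dependent fragment share. Without peaks of over 100 input fragments that share was 2.16%, and the PRDM9-independent one 2.79% (2.78% for p under 1e-10). Leaving out the widest broad peak or the MHC, using 37 Mb tiles, taking the class from the confidence interval, leaving out peaks near a start or inside a PRDM9-independent broad peak, and dropping peaks of high input were chosen after seeing the data. The other 80 values stayed within 1.5 times, the counting interval or the replicate spread. For enrichment with 1 replicate left out, this sets the ratio against the unlike deposited measure. The share needs no length and no comparison window, so those settings gave no new share. No paired analysis was possible because the labels give the input no replicate number and the peaks were called on both ChIP libraries jointly. Depth limits single PRDM9-dependent peaks, most of which have few fragments.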
